A study of Mus musculus with 2 samples.

Results

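The cells described here are the lymph node T cells of this study with the highest ratio of resting and recirculation transcripts to transcripts of antigen-engaged cells. They were chosen by a score over 11 genes, the log2 of the summed unique molecular identifiers (UMIs, 1 per captured transcript) of Bcl2, Satb1, Ccr7, S1pr1, Lef1 and Ly6c1 plus 1, divided by those of Tbc1d4, Nrp1, Cd83, Izumo1r and Nrn1 plus 1. Of the lymph node cells that passed the depth and quality limits, 2119 were neither B cells nor cycling cells by marker genes. The 706 of them with the highest scores are described (the high-score cells), out of 3688 cells in both libraries of the series. The other cells, ranked by the same score, were divided into 707 middle-score cells, against which the high-score cells are set, and 706 low-score cells, which are given for reference.

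The study profiled sorted cells by droplet single-cell RNA sequencing with 10x Chromium 3′ chemistry, which reads each transcript near its 3′ end. Both groups were Foxp3Cre-YFP mice on the C57BL/6 strain, aged 5 to 8 weeks, in which the Foxp3 locus drives Cre recombinase and a yellow fluorescent protein. One group was lymph node of unchallenged animals and the other was B16 melanoma, a transplantable mouse tumour line, taken on day 14. There was 1 library per group, and the sources used here name neither the sort gate nor the number of mice. Cells of 1 library are not replicates, so no comparison carries a p-value; intervals are exact 95% intervals that cover counting error only.

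Regulatory T cells (Treg cells) are CD4 T cells that restrain immune responses under the transcription factor FOXP3. Those that circulate through lymphoid organs enter lymph nodes with the help of the chemokine receptor CCR7, and leave along a gradient of sphingosine-1-phosphate sensed by S1PR1. The transcription factor KLF2 maintains S1pr1, while BCL2 and the factors LEF1, TCF1 and SATB1 belong to the resting T cell programme. Treg cells that have met antigen lose these features and gain costimulatory receptors, inflammatory homing receptors and inhibitory receptors.

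Ly6c1 encodes a GPI-anchored surface antigen of resting and memory T cells. Its level differed more between the 3 classes of cells than that of the other resting genes of the score. This is a description only, since Ly6c1 helped to choose the cells. With classes re-chosen without it, Ly6c1 was 2.56-fold higher in the high-score than the middle-score cells (2.24 to 2.92). It lies beside a close copy, Ly6c2, on chromosome 15 (GRCm38), at 75044018 to 75048830 against 75108158 to 75111970, both on the minus strand. The 2 transcripts were 95% identical over their alignment, with a longest identical run of 188 bases, and their last 300 bases were 93.5% identical. Counts from a 3′ assay could therefore be exchanged between them, and both are uncertain. Their promoter windows of 300 bases had 214 identical bases over 340 aligned positions, gaps included (62.9%). The Ly6c2 window opens with bases that lie further inside the Ly6c1 window. This value therefore depends on where the windows start and is not comparable with those of the transcripts. The RefSeq promoter windows of the first listed starts are shown (GRCm38.p6, 250 bases before to 50 after, minus strand, chr15:75048788-75049087 and chr15:75111922-75112221). They were picked because Ly6c1 and Ly6c2 had 905 and 23 UMIs in the high-score cells, which Ly6c1 helped to choose. The counts were 241 and 14 in the middle-score cells and 33 and 4 in the low-score cells. In the tumour cells the order was the reverse, 104 and 1039. The part of the promoters in these counts was not tested. Capitals mark the longest run that both windows share, 20 bases.
Ly6c1: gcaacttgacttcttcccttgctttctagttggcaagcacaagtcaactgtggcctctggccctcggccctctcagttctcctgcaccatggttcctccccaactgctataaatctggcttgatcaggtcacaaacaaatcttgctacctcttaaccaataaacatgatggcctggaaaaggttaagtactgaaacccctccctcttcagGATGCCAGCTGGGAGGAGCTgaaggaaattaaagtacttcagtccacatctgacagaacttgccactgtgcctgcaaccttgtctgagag
Ly6c2: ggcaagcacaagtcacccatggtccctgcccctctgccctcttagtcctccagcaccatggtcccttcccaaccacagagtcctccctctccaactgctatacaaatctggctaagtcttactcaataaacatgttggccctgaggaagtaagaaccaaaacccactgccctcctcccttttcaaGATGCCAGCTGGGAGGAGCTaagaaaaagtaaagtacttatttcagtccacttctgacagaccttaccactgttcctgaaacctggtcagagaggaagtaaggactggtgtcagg

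The promoter of Klf2 is shown because its product maintains S1pr1 and its level is followed through all the comparisons. It covers chr8:72318812-72319111 on the plus strand (GRCm38.p6, RefSeq), and capitals mark its only match to CACCC or its reverse complement GGGTG, the core that Krüppel-like factors bind. Such a match is present in 57.5% of the 32851 RefSeq promoter windows of the same length, so it is common. The window held no match on either strand to TGTTTAC, the forkhead core, or CTTTGAT, the core bound by TCF1 and LEF1, which are in 3.65% and 3.73% of windows.
Klf2: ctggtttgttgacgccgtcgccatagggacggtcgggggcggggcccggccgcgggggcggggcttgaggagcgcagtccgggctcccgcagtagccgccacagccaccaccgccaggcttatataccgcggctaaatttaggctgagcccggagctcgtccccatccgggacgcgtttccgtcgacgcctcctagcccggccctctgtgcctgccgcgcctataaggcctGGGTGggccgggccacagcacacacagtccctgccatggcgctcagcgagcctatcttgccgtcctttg

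The libraries differed in depth. The lymph node matrix held 14000036 UMIs and the tumour matrix 23618037, with 1 called barcode common to both and none of the high-score cells among it. The high-, middle- and low-score cells held medians of 3894, 4291 and 3904.5 UMIs per cell, 1252.5, 1337 and 1404 genes, and 2.48%, 2.70% and 2.99% mitochondrial UMIs. Ribosomal protein transcripts made up a median of 41.6% of UMIs in the high-score cells, 40.2% in the middle-score cells and 33.8% in the low-score cells. Their part in the gene differences was not tested beyond the scaling alternatives given at the end.

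The score had no gap between the classes. It ran from 1.17 to 4.58 in the high-score cells (median 2.12), from −0.58 to 1.14 in the middle-score cells (median 0.32) and from −4.52 to −0.58 in the low-score cells (median −1.58). Within 0.25 of the boundary lay 115 high-score cells and 114 of the middle-score cells. The 50 cells just inside had medians of 6 resting and 2 engaged UMIs, and the 50 just outside 9.5 and 4, so the boundary separates ratios rather than amounts. Sampling of transcripts also moved cells across it. When each cell's UMIs were split at random into 2 equal sets and each set was scored alone, the high-score cells of both sets shared 459 cells (65.0% of each), and 45 (6.37%) of the high-score cells of one set fell among the low-score cells of the other.

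**Figure D1:**
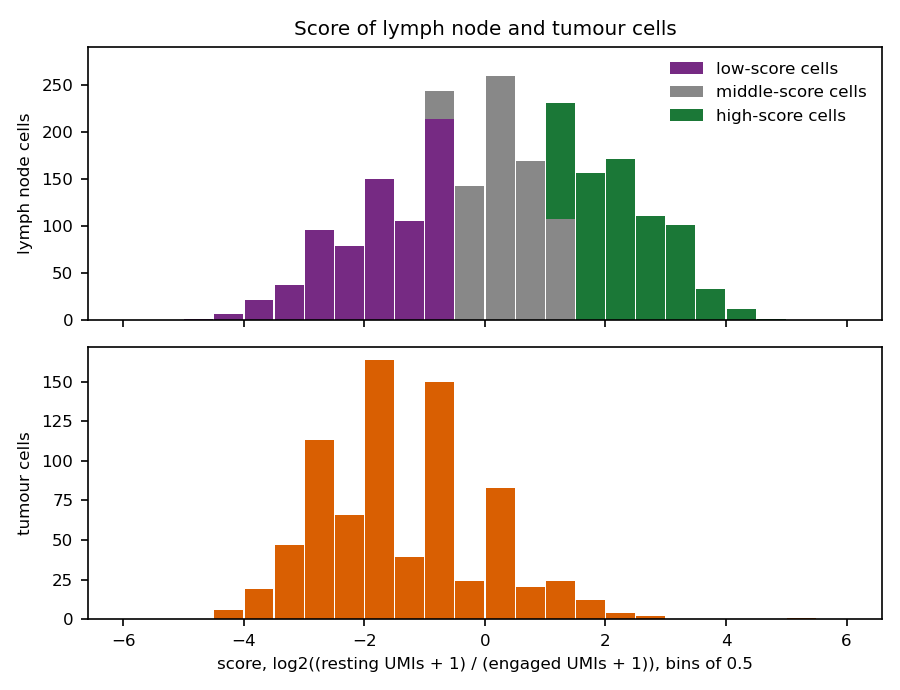
Distribution of the score over the 2119 lymph node cells (upper panel) and 774 tumour cells (lower panel), with the score on the x axis in log2 units and the number of cells on the y axis. Colours mark the 3 classes of lymph node cells, whose scores run on without a gap, and 21 tumour cells reach the lowest score of the high-score cells.

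The genes of the score are given as a description, since they chose the cells. In CPM, the summed UMIs of a gene per 1000000 UMIs of its class, the anti-apoptotic gene Bcl2 was at 851 in the high-score cells, 522 in the middle-score cells and 187 in the low-score cells. The chromatin organiser Satb1 was at 251, 124 and 26.8, the transcription factor Lef1 at 266, 183 and 80.4, and Ly6c1 at 315, 74.2 and 9.93. The homing receptor Ccr7 was at 266, 211 and 98.4 CPM, and the egress receptor S1pr1 at 257, 177 and 57.2. On the other side, Izumo1r, which encodes folate receptor 4, was at 254, 817 and 1285 CPM and the coreceptor Nrp1 at 17.4, 110 and 230. The signalling regulator Tbc1d4 was at 23.3, 60.1 and 147 CPM, the activation marker Cd83 at 4.88, 32 and 144, and the neuronal surface protein Nrn1 at 4.53, 16 and 94.8. No UMI of these 5 engaged genes was found in 264 high-score cells (37.4%) and 33 of the middle-score cells (4.67%).

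Each score gene was also compared between classes re-chosen without it. Ly6c1 was still 2.56-fold higher in the high-score than the middle-score cells (interval 2.24 to 2.92), Satb1 1.64-fold (1.44 to 1.86), Lef1 1.34-fold (1.19 to 1.49) and Bcl2 1.23-fold (1.15 to 1.32). Ccr7 and S1pr1 were each 1.31-fold higher (1.18 to 1.47 and 1.17 to 1.47). Of the engaged genes, Cd83 was 3.69-fold lower (2.52 to 5.53), Nrp1 2.54-fold (2.09 to 3.12) and Izumo1r 1.37-fold (1.29 to 1.45). All 11 genes kept their direction when they had no vote in choosing the cells. The rule was set with earlier results of these data known, so this describes how the genes vary together and is no independent support. With the score from one set of the split UMIs and the level from the other, however, Ccr7 did not separate the classes beyond counting error (1.03-fold, 0.891 to 1.2).

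Co-detection of the resting genes was partial. After each cell was thinned to 1811 UMIs, 4 or more of the 6 resting genes were found in 142 high-score cells (20.1%, 17.2 to 23.3), in 30 of the middle-score cells (4.24%, 2.88 to 6.00) and in none of the low-score cells, which allows up to 0.521%. Most high-score cells showed 2 genes (223 cells, 31.6%) or 3 genes (224 cells, 31.7%), all 6 were seen in 6 cells, and none in 12. Ly6c1 was seen in 36.8% of the thinned high-score cells, S1pr1 in 40.2%, Ccr7 in 39.0% and Bcl2 in 67.3%.

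The Treg identity of the cells was described by markers that the score did not use. These markers are not independent of the rule, because Izumo1r and Nrp1, on the engaged side of the score, belong to the core Treg list. The part of that choice in the marker levels was not tested beyond leaving each score gene out in turn. Foxp3 (chromosome X, 7573644 to 7595245, plus strand) was sparse in every class, with 57 UMIs in the high-score, 78 in the middle-score and 79 in the low-score cells, or 19.8, 24.0 and 23.8 CPM. Its share of thinned cells was 4.11%, 4.24% and 4.11%, so no difference was detectable at this depth (ratio of high-score to middle-score cells 0.826, 0.577 to 1.18). Il2ra, which encodes the high-affinity interleukin-2 receptor chain of Treg cells, was likewise at 169, 174 and 146 CPM (ratio 0.970, 0.858 to 1.10). Ikzf2, which encodes the Treg factor Helios (chromosome 1, 69531214 to 69687245, minus strand, GRCm38), differed. It stood at 318 CPM in the high-score cells, 645 in the middle-score cells and 1126 in the low-score cells, 2.03-fold lower in the high-score than the middle-score cells (1.88 to 2.20). At equal depth Ikzf2 was seen in 34.8% of the high-score cells (31.3 to 38.5), 56.9% of the middle-score cells (53.1 to 60.5) and 76.1% of the low-score cells (72.7 to 79.2), against 54.0% and 73.3% unthinned in the high-score and middle-score cells. In the 9 lymph node B cells (median 3309 UMIs) 0 had an Ikzf2, Foxp3, Il2ra or Izumo1r UMI, which with so few cells allows shares of up to 33.6%, so free RNA in the droplets is only weakly bounded. Barcodes of 1 to 100 UMIs, which hold mostly such free RNA, carried several Treg transcripts at a higher CPM than the high-score cells did. Ikzf2 was at 461 CPM in them, Tnfrsf18 at 364 against 242 in the high-score cells, Ctla4 at 181 against 53.3, Tnfrsf4 at 482 against 202 and Capg at 715 against 243, and the 7 Treg markers together were at 1271 against 924. Foxp3 and Il2ra were lower in these barcodes than in the high-score cells, at 5.55 and 151 CPM. The part of free RNA in the Treg transcripts of the high-score cells was not tested.

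Izumo1r and Nrp1, as score genes, were left out of the core Treg list. Its 12 measured genes had a median log2 ratio of −0.66 against the middle-score cells, beside −0.06 over all 6753 genes measured. With classes chosen without Izumo1r in the score, the core Treg median was −0.37. Of the 12 genes, 7 were at least 1.5-fold lower, 0 at least 1.5-fold higher and 5 in between. Over all genes measured, 417 (6.18%) were at least 1.5-fold lower in the high-score cells and 113 (1.67%) at least 1.5-fold higher. An interval lay wholly below 1 for 659 of the 6753 genes and wholly above 1 for 319. Capg, an actin-capping protein abundant in Treg cells, was at 243 CPM in the high-score cells against 472 in the middle-score cells, 1.94-fold lower (1.77 to 2.12). Il2rb, the shared receptor chain for interleukin-2 and interleukin-15, was 1.87-fold lower (1.60 to 2.19). Ctla4, an inhibitory receptor through which Treg cells act, was 1.78-fold lower (1.46 to 2.17), and the costimulatory receptor gene Tnfrsf4 (OX40) 1.75-fold lower (1.58 to 1.94). Smaller differences were seen for Tnfrsf18 (GITR, 1.26-fold lower, 1.15 to 1.39) and Gpr83 (1.35-fold lower, 1.13 to 1.63). Ikzf1, a relative of Ikzf2, was the exception at 1.18-fold higher (1.01 to 1.39).

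Treg markers were not seen in every cell. No UMI of 7 Treg markers (Foxp3, Il2ra, Ikzf2, Ctla4, Tnfrsf18, Ikzf4 and Gpr83) was found in 87 high-score cells (12.3%, 9.99 to 15), 32 of the middle-score cells (4.53%, 3.12 to 6.33) and 13 of the low-score cells (1.84%, 0.984 to 3.13). At equal depth the shares were 29.3%, 16.5% and 7.37%. Markers associated with conventional CD4 T cells, a list that includes Igfbp4 and Dapl1 and holds 10 genes of which 3 were at 0 in the high-score cells, summed to 429, 327 and 167 CPM, and Igfbp4 gave 984 of the list's 1233 UMIs in the high-score cells. Apart from Igfbp4 and Dapl1, the measured members did not differ beyond counting error from the middle-score cells. Cd40lg, the CD40 ligand gene of helper T cells, was at 20.5 CPM in the high-score cells, 17.3 in the middle-score cells and 29.5 in the low-score cells (1.19-fold higher than in the middle-score cells, 0.812 to 1.75). Trat1, an adaptor of the antigen receptor complex, had a ratio of 0.822 (0.465 to 1.43), and the cytokine gene Il2 a log2 ratio of −0.15. The label of resting Treg cells was met in part: 7 core Treg genes were at a lower level than in the middle-score cells, and 87 cells had no UMI of the 7 markers. They are called high-score cells for that reason.

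Markers of other cell types were at low levels. B cell markers summed to 33.4 CPM in the high-score cells, 96.7 in the middle-score cells and 255 in the low-score cells, with 5 of its 9 genes at 0 in the high-score cells; most of it was Cd74, which activated T cells also express, and the rule itself had removed cells with 2 or more UMIs of Cd79a and Ms4a1. Macrophage and monocyte markers summed to 2.09, 4.62 and 4.21 CPM, NK and innate lymphoid markers to 2.79, 5.24 and 12, and dendritic cell markers to 4.53, 3.08 and 8.43. CD8 T cell markers summed to 52.2, 122 and 291 CPM, but their genes did not move together. The chemokine gene Ccl5 was at 6.96 CPM in the high-score and 67.5 in the middle-score cells, and the cytotoxic granule gene Nkg7 at 21.9 and 41. Cd8b1, the CD8 beta chain gene, was at 23 against 12.9 CPM, 1.78-fold higher in the high-score cells (1.19 to 2.68), and was seen in 62 of 706 cells unthinned (8.78%, against 5.80% of the middle-score cells). Cd8a had 0 UMIs in every class. The part of CD8 T cells in the differences was not tested. Of 8 gamma-delta T cell markers, 4 were in the gene list used here, and these had 0 UMIs in the high-score cells; stromal and endothelial markers also had 0. Plasma cell markers stood at 63.7 CPM against 54.2, and Jchain, with 33 UMIs against 1, came entirely from at most 3 of the high-score cells.

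Entry and egress genes outside the score were, as a list, near level: all 14 measured lay within 1.5-fold, and the median log2 ratio was 0.02. Klf2 stood above the middle-score cells all the same. Klf2 was at 879 CPM in the high-score cells, 705 in the middle-score cells and 290 in the low-score cells, a log2 ratio to the middle-score cells of 0.32 (ratio interval 1.18 to 1.32), with shares at equal depth of 70.4%, 61.1% and 32.7%. Unthinned, it was seen in 86.4% and 79.6% of the high-score and middle-score cells. Of the 9 B cells, 6 had a Klf2 UMI, as B cells express the gene too. Klf3 was 1.24-fold higher (1.05 to 1.46) and Gpr183, an oxysterol receptor that guides lymphocytes within lymphoid tissue, 1.43-fold higher (1.06 to 1.92). Integrin and other members were level or lower: Itgb7 was at 259 against 255 CPM, S1pr4 at 124 against 127, and Itgal (the LFA-1 alpha chain) 1.32-fold lower (1.09 to 1.61). Cd69, which opposes egress by holding S1PR1 inside the cell, was at 61.3 against 60.7 CPM.

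Genes for tissue and inflammatory homing were lower in the high-score cells. Of 13 measured, 11 were at least 1.5-fold lower, 1 was at least 1.5-fold higher, and the median log2 ratio was −1.54. The shares over all genes measured were 6.18% lower and 1.67% higher. Cxcr3, a receptor for interferon-induced chemokines, had 10 UMIs in the high-score cells against 64 in the middle-score cells, 5.66-fold lower (2.89 to 12.4). Itgb1, the integrin beta1 chain, was at 20.2 CPM against 79.8, 3.95-fold lower (2.96 to 5.35), and Itgae (CD103) at 5.92 against 23.7, 4.01-fold lower (2.35 to 7.23). Cd44, a memory and activation marker, was at 15.7, 33.6 and 78.9 CPM. The exception was Ccr9, the gut-homing receptor also carried by recent thymic emigrants, with 34 UMIs in the high-score cells and 15 in the middle-score cells (2.56-fold higher, 1.36 to 5.06).

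The effector Treg list was lower throughout. All 19 of its genes with enough UMIs to measure were at least 1.5-fold lower in the high-score cells. An interval wholly below 1 was found for 18 of them, and the median log2 ratio was −1.32. The other 11 of 30 had too few UMIs. Among all 6753 genes measured, 6.18% were at least 1.5-fold lower and 659 had an interval below 1. Icos, a costimulatory receptor of effector Treg cells, was at 35.9, 83.5 and 253 CPM, 2.33-fold lower than in the middle-score cells (1.85 to 2.95). Pdcd1 (PD-1) was 4.33-fold lower (2.58 to 7.63), Lag3 6.34-fold lower (2.69 to 18.2) and the transcription factor Maf 3.43-fold lower (2.31 to 5.23). S100a4, a calcium-binding protein of memory T cells, was at 20.5, 103 and 243 CPM, 5.02-fold lower (3.80 to 6.74), and 42.4% of its UMIs in the high-score cells came from 3 cells. Cells with 3 or more UMIs of the list at equal depth made up 8.22% of the high-score cells (6.30 to 10.5), 21.4% of the middle-score cells (18.4 to 24.6) and 57.5% of the low-score cells. Among the 52 high-score cells and 71 of the middle-score cells with a Foxp3 UMI, S100a6 and Itgb1 were not lower than in the middle-score cells, with log2 ratios of 1.05 and 0.07. S100a4 had a log2 ratio of −0.11 there, against −3.32 at the other end of the alternatives tried. In those cells the effector list's median log2 ratio was −0.68 and that of the homing list −0.02.

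**Figure D2:**
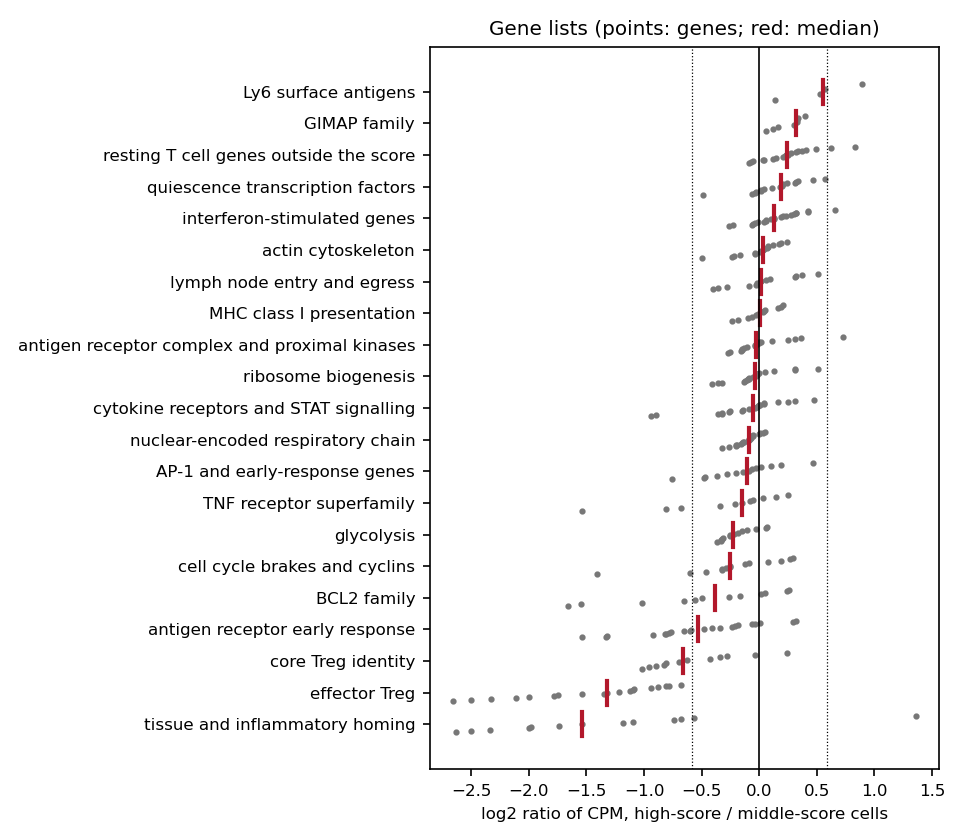
Log2 ratio of CPM, the high-score cells over the middle-score cells, on the x axis for the genes of each list (grey points) with the list's median (red bar); dotted lines mark 1.5-fold each way. Effector Treg and tissue homing lists lie farthest to the lower side, at −1.32 and −1.54. GIMAP and Ly6 genes lie to the higher side, at 0.32 and 0.55. The Ly6 median rests on 4 genes, among them Ly6c2, whose counts could be exchanged with those of the score gene Ly6c1.

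Responses to antigen receptor signalling were lower in part. Of 22 measured early response genes, 11 were at least 1.5-fold lower and 0 at least 1.5-fold higher, with a median log2 ratio of −0.53. For all genes measured the shares were 6.18% and 1.67%. Nr4a1, an immediate target of receptor signalling, had 29 UMIs against 82 (2.50-fold lower, 1.62 to 3.96), but 44.8% of those in the high-score cells came from 3 cells. Tnfrsf9 (4-1BB) was 2.90-fold lower (2.12 to 4.03), Egr2 2.51-fold lower (1.27 to 5.32) and the NF-kappaB subunit gene Rel 1.77-fold lower (1.32 to 2.39). Egr1 was at 15 against 15.4 CPM and Myc at 47.4 against 37.9 (ratio interval 0.972 to 1.61), neither separable from the middle-score cells at this depth. The receptor complex itself was near level, with 17 of 18 genes within 1.5-fold and a median log2 ratio of −0.03. Cd4 was at 107 against 108 CPM and Cd3g 1.11-fold lower (1.06 to 1.17). The exception was Txk, a Tec-family kinase of resting T cells, at 124, 74.9 and 34.3 CPM (1.66-fold higher, 1.41 to 1.96).

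Quiescence transcription factors outside the score leaned higher by small amounts. All 18 measured were within 1.5-fold, 14 were higher and 4 lower, and the median log2 ratio was 0.19. An interval lay above 1 for 8 and below 1 for 1, beside 319 and 659 of all 6753 genes measured. Bach2, a repressor that holds back effector differentiation, was at 47.7, 32.0 and 23.5 CPM (1.49-fold higher, 1.15 to 1.94). Tcf7, which encodes TCF1, was at 181, 157 and 165 CPM (1.16-fold, 1.02 to 1.31). Tsc22d3, the glucocorticoid-induced leucine zipper, was 1.26-fold higher (1.09 to 1.46). Of the 4 lower genes, the one with an interval below 1 was Id3, an inhibitor of E proteins, 1.40-fold lower (1.27 to 1.56).

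Among 20 resting T cell genes outside the score, 17 were higher, 10 with an interval above 1, and 2 reached 1.5-fold. Of all 6753 genes measured, 319 had an interval above 1 and 1.67% were at least 1.5-fold higher. Dapl1, a gene of naive T cells with little known function, was at 47.0, 26.5 and 10.8 CPM (1.77-fold higher, 1.34 to 2.35). The Rap activator Rasgrp2 was at 164, 107 and 47.9 CPM (1.54-fold, 1.34 to 1.78). Igfbp4, an insulin-like growth factor binding protein, was at 343, 258 and 87.6 CPM (1.33-fold, 1.21 to 1.46), and Pik3ip1, an inhibitor of PI3 kinase, was 1.40-fold higher (1.18 to 1.66). Dapl1 was unstable: with Izumo1r left out of the score its log2 ratio was −0.30.

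Of the survival and cytokine genes, those past 1.5-fold were all lower. Of 12 BCL2 family genes outside the score, 4 were at least 1.5-fold lower and 0 higher, beside 6.18% and 1.67% of all genes measured. Bcl2a1b and Bcl2a1d, near-identical copies induced by NF-kappaB and so uncertain individually, were 2.93-fold (2.29 to 3.79) and 3.17-fold (1.88 to 5.58) lower. Bcl2l1 (BCL-XL) was 1.57-fold lower (1.07 to 2.32), while Mcl1 was at 136 against 152 CPM and the pro-apoptotic gene Bcl2l11 at 17.8 against 14.8. Among 22 cytokine receptor and STAT genes, 20 were within 1.5-fold. The other 2 were lower, Il2rb 1.87-fold and Il10ra, an interleukin-10 receptor chain, 1.92-fold (1.15 to 3.30). Il7r, the survival receptor of resting conventional T cells, was at 67.2, 71.8 and 81.6 CPM (ratio 0.936), and Il4ra was 1.39-fold higher (1.13 to 1.71).

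All 8 GIMAP genes, which encode lymphocyte GTPases linked to survival, were higher in the high-score cells, 6 with an interval above 1, and none by 1.5-fold (median log2 ratio 0.32). An interval above 1 was found for 319 of all 6753 genes measured. Gimap6 was 1.32-fold (1.21 to 1.43) and Gimap4 1.23-fold higher (1.14 to 1.33). In the Ly6 list Ly6a (Sca-1) was at 293, 202 and 218 CPM (1.45-fold, 1.30 to 1.60). Ly6c2, the neighbour of Ly6c1 whose promoter is printed here, had 23 UMIs against 14 (1.86-fold, 0.916 to 3.90). The list's median log2 ratio of 0.55 rests on 4 measured genes. It is not independent of the rule, since Ly6c2 counts could be exchanged with those of Ly6c1, which helped to choose the cells. Interferon-stimulated genes were within 1.5-fold for 21 of 22, with Usp18 at 1.58-fold higher (1.24 to 2.03). Ribosome biogenesis, glycolysis, respiratory chain, actin and MHC class I lists held no gene past 1.5-fold in either direction, with median log2 ratios of −0.04, −0.23, −0.09, 0.03 and 0.01.

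**Figure D3:**
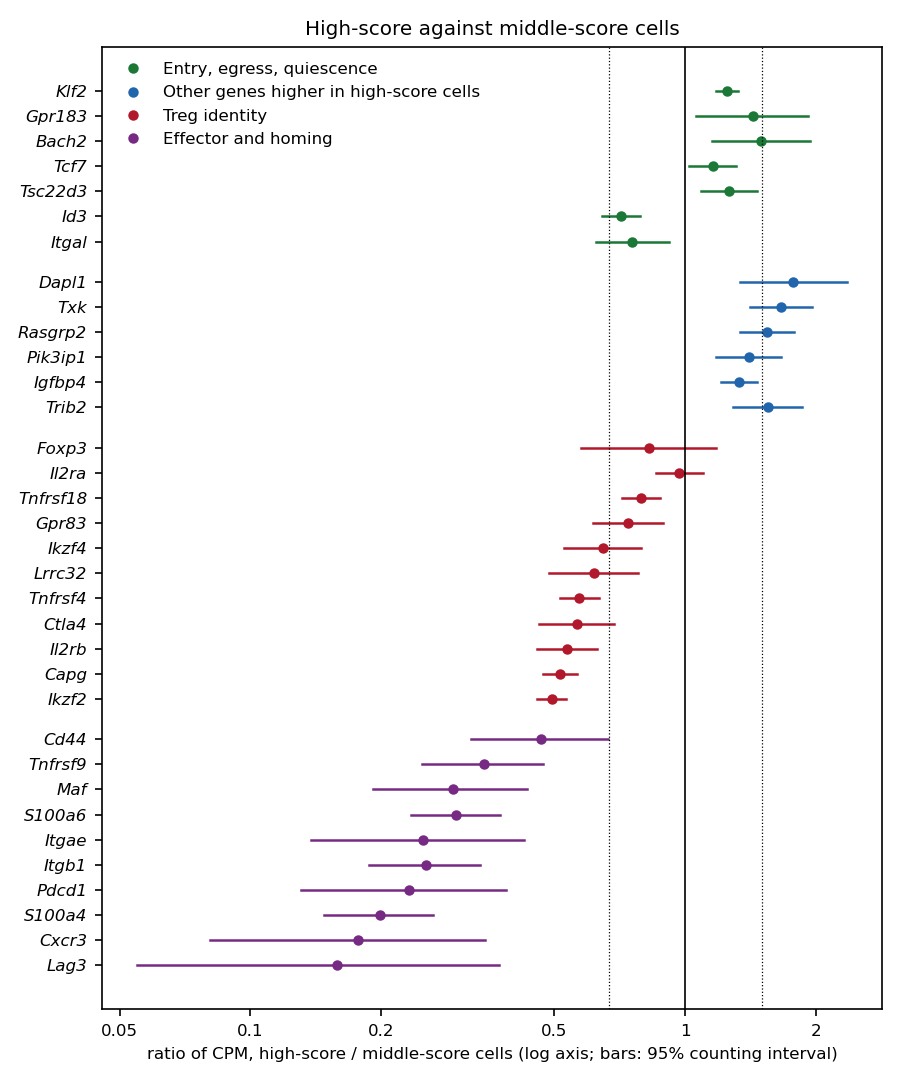
Ratio of CPM, the high-score cells over the middle-score cells, on a log axis for named genes, with 95% counting intervals as bars. Tcf7 lies at 1.16 and Igfbp4 at 1.33, Foxp3 and Il2ra intervals include 1, and effector and homing genes lie lowest; dotted lines mark 1.5-fold each way.

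Of the 113 higher and 417 lower genes over the whole table, 42 and 105 had an interval that includes 1. Whole intervals past 1.5-fold were found for 2 higher genes (0.0296%) and 53 lower genes (0.785%). Both higher genes were sparse: Myo6, a myosin motor, had 60 UMIs against 16 (4.24-fold, 2.41 to 7.88), and Tec, a kinase of the same family as Txk, had 41 against 14 (3.31-fold, 1.77 to 6.57). The remaining leading genes on the higher side included Atp1b1, a sodium pump subunit (1.91-fold, 1.44 to 2.55), the PI3K-regulated kinase Sgk3 (2.46-fold, 1.47 to 4.22), the pseudokinase Trib2 (1.55-fold, 1.29 to 1.86) and the adhesion ligand Icam2 (1.55-fold, from 212 UMIs against 155). Of the higher genes, only 35 of 113 were lower in the low-score cells than in the middle-score cells. Most of the higher genes therefore did not keep falling with the score, among them Commd10 at 13.6, 5.24 and 19.9 CPM. Of the 417 lower genes, 305 were higher in the low-score than the middle-score cells. The same shares over all genes were not counted. On the lower side Ccl5 had 20 UMIs against 219, but 77.2% of the latter came from 3 middle-score cells. Gpm6b, a membrane glycoprotein, had 5 against 60 (10.6-fold lower, 4.31 to 33.9), and Tiam1, a Rac activator, 30 against 139 (4.10-fold, 2.75 to 6.30).

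Levels were followed in 10 bins of cells ordered by score, from the highest. Ikzf2 was at 238 CPM in bin 1, 352 in bin 3, 550 in bin 4 and 1439 in bin 10, with each bin above the one before. Klf2 was nearly flat over the first bins, at 924, 919 and 833 CPM, and stood at 148 in the tenth. Igfbp4 was at 337 CPM in bin 1 and 27.8 in bin 10. The effector Treg list summed to 404 CPM in bin 1, 594 in bin 3 and 3493 in bin 10. Tcf7 stayed between 149 and 201 CPM, Il2ra between 109 and 195, and Foxp3 between 13.9 and 27.4. The Treg marker list summed to 757 CPM in bin 1 and 1025 in bin 3, so that the highest scores among the high-score cells came with the lowest Treg marker level.

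**Figure D4:**
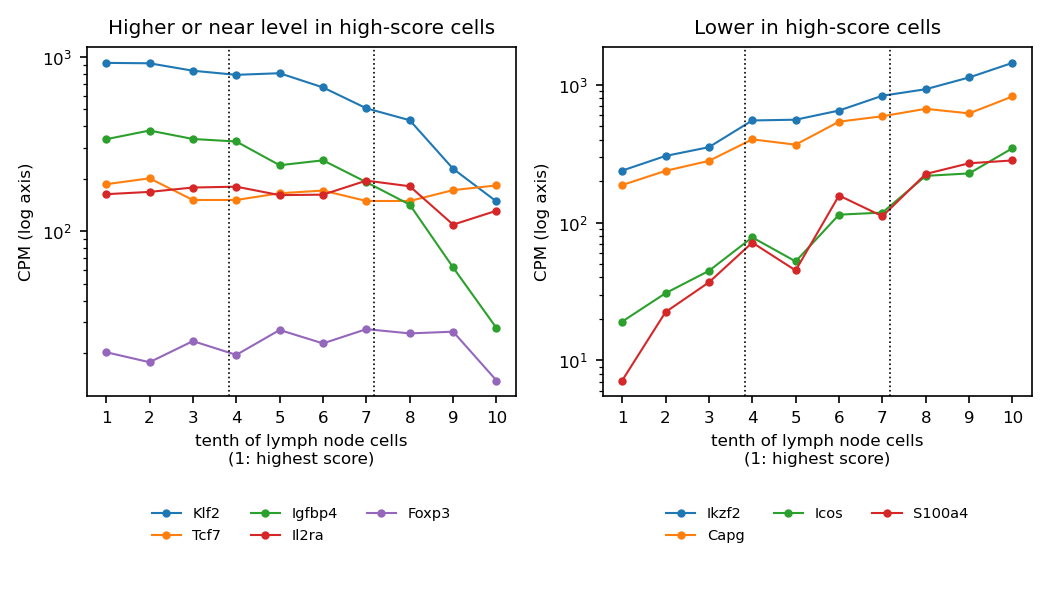
CPM on a log axis of 9 genes across bins of lymph node cells ordered by score, from the highest (1) to the lowest (10); dotted lines mark the boundaries of the 3 classes. Klf2 and Igfbp4 lie lower and Ikzf2, Capg, Icos and S100a4 higher toward low scores, while Tcf7, Il2ra and Foxp3 show no steady trend.

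Within the high-score cells, 345 cells had a Ly6c1 UMI and 361 had none, at medians of 3974 and 3844 UMIs. Since Ly6c1 is a score gene, the median scores also differed, 2.32 against 2.0, and their part in the differences below was not tested. Klf2 was at 873 against 885 CPM and S1pr1 at 245 against 269 (ratio intervals 0.912 to 1.07 and 0.784 to 1.05), so neither differed beyond counting error. Ly6a was 2.56-fold higher in the cells with Ly6c1 (2.20 to 2.99), at 423 against 165 CPM. Of interferon-stimulated genes, 4 were among the largest differences and higher in these cells: Ifit1 2.05-fold (1.51 to 2.80), Irf7 2.07-fold (1.5 to 2.86), Isg15 1.92-fold (1.48 to 2.49) and Ifit3 1.95-fold (1.31 to 2.93). S100a6 was 2.81-fold lower in them (1.74 to 4.67), Dapl1 2.09-fold (1.44 to 3.07), and Ikzf2 at 270 against 365 CPM was 1.35-fold lower (1.18 to 1.54). Of 4558 genes, 87 were at least 1.5-fold higher and 189 at least 1.5-fold lower in these cells.

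The 87 high-score cells with no Treg marker UMI were also compared with the other 619 in genes outside the marker list. They had a median of 3663 UMIs against 3942 and a median score of 2.46 against 2.0. Of 4558 genes, 314 were at least 1.5-fold higher and 614 at least 1.5-fold lower in them, so such folds were common. Dapl1 was at 179 CPM against 30.2, 5.93-fold higher (4.14 to 8.44), and these cells held 58 of its 135 UMIs. Cd40lg was 2.93-fold higher (1.54 to 5.30), Igfbp4 1.63-fold higher (1.37 to 1.93) and the GTPase gene Arl4c 2.11-fold higher (1.69 to 2.63). Tnfrsf4 was 3.07-fold lower (2.03 to 4.89), Rgs1, a regulator of G protein signalling, 3.24-fold lower (2.15 to 5.09), and Bcl2 1.58-fold lower (1.36 to 1.85). Cd3e was at 503 against 458 CPM and Cd4 at 98.8 against 108. Other core Treg genes were still counted in the marker-free cells: Tnfrsf4 had 23 UMIs, at 71 CPM against 218, and Capg 44, at 136 against 257. Because these cells were picked for lacking 7 markers, only genes outside that list are compared. Without the marker-free cells of both classes, an alternative added after the data were seen, 124 genes were at least 1.5-fold higher and 410 lower, Ikzf2 had a log2 ratio of −0.90, Foxp3 −0.15 and Dapl1 0.46.

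**Figure D5:**
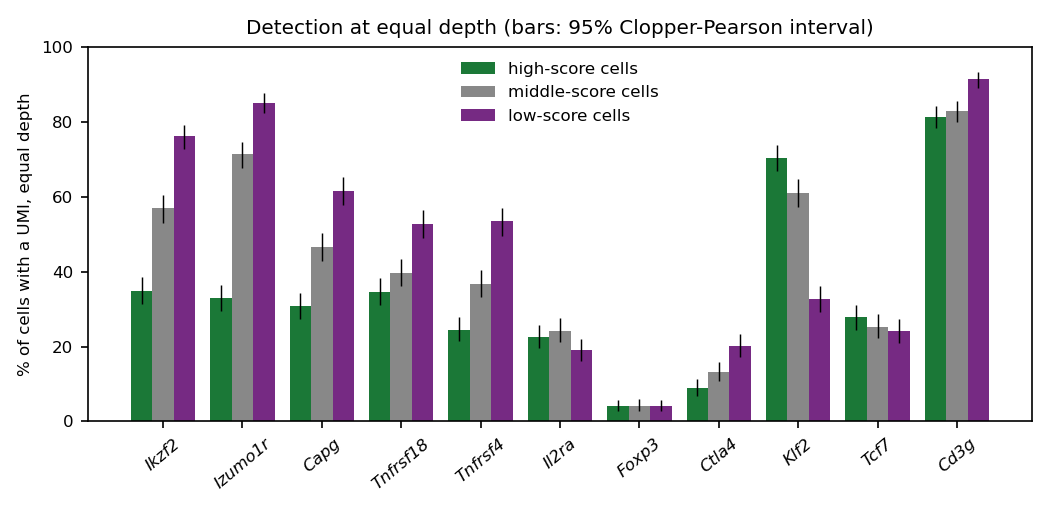
Share of cells with at least 1 UMI of each gene after every cell was thinned to 1811 UMIs, in percent on the y axis, for the 3 classes of lymph node cells, with 95% Clopper-Pearson intervals. Klf2 is highest in the high-score cells at 70.4%, Ikzf2 is at 34.8% there and at 76.1% in the low-score cells, and Foxp3 is at 4.11% to 4.24%.

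Few tumour cells reached such scores. Of 774 tumour cells passing the same limits at that library's own threshold of 3834 UMIs (median 6274 UMIs), 21 (2.71%, 1.69 to 4.12) reached the lowest score of the high-score cells, and 15 (1.94%, 1.09 to 3.18) after thinning to 1811 UMIs, when 608 of 2119 lymph node cells did (28.7%, 26.8 to 30.7). Those 21 cells had medians of only 3 resting and 0 engaged UMIs, against 8 and 1 in the high-score cells, so their scores rest on few transcripts. Klf2 was at 121 CPM in the tumour cells against 879 in the high-score cells, and Igfbp4 at 1.08 against 343. Bcl2, which helped to choose the high-score cells, was at 25 against 851. These genes were also higher in the low-score lymph node cells than in tumour, with Klf2 at 290 and Bcl2 at 187 CPM. The difference from tumour is therefore not particular to the high-score cells. Ikzf2 was at 1331 CPM in tumour, 4.19-fold above the high-score cells, and Ctla4 at 801 against 53.3, whereas Il2ra was at 178 against 169 and Foxp3 at 23.6 against 19.8. Tissue, library and mice cannot be told apart in this comparison.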

How the data were processed

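The authors deposited raw UMI counts per gene and barcode, 1 unfiltered matrix of 27998 genes by 737280 barcodes per library. The submitters' processing notes name Cell Ranger and the mm10 build; a version and an annotation are not named in those notes.

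A barcode was called a cell at 10% of the 99th percentile of the 3000 largest barcodes (1811 UMIs in lymph node, 3834 in tumour), provided that it had 200 genes or more and no more than 10% of its UMIs from mitochondrial genes; this left 2213 and 1475 barcodes. In lymph node 9 B cells (2 or more UMIs of Cd79a and Ms4a1) and 85 cycling cells were removed, and in tumour 701 cycling cells. Cycling cells were those with 2 or more UMIs over Mki67, Top2a, Ube2c, Cdk1 and Birc5. No doublet caller was run, and possible doublets were kept. UMIs were summed per class and scaled to CPM; ratios carry exact conditional-binomial 95% intervals and shares Clopper-Pearson intervals, and 3 UMIs is the limit that a count of 0 allows. For all genes the minimum was 50 UMIs over both classes compared, and for list members 20. Shares and gene numbers at equal depth used cells thinned to 1811 UMIs. The score genes were left out of lists and counts. Lists share genes, so their medians and counts are not separate results. Cd44, Cxcr3 and Itgae are in both the homing and effector lists. Tnfrsf4 and Tnfrsf9 are in both the early response and TNF receptor lists, and Klf2 and Tcf7 in both the quiescence and resting lists. The computation was tested on simulated data.

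Named were the score genes, the core Treg and Treg marker lists and 10 further genes whatever their values, the 15 genes most different in each direction, judged by the end of the interval closest to 1, up to 4 members of each list judged likewise and up to 2 of each marker list by level; clone-named, antigen receptor, haemoglobin, ribosomal protein and mitochondrial genes could not enter the 15. Some of the genes so named are not reported here; the list counts include them where they are members. Klf3, S1pr4, Itgb7, Ccr9, Icos, Egr2, Rel, Cd4, Cd3e, Mcl1 and Bcl2l11, and the genes named within the high-score cells, were chosen after their values were seen. The members and the lists were chosen with earlier results of these data known. Alternatives covered depth, cell limits, score cut and genes, gene minimum, scaling and Treg identity. Promoters came from the RefSeq table; proteins were not used here. Coordinates are from GENCODE M21 (GRCm38). Python 3.11.15, numpy 2.4.6, scipy 1.17.1, pandas 2.3.3 and matplotlib 3.10.9 were used.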

Additional observations from a re-analysis of the deposited data

How the results depend on the processing

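The count of genes at least 1.5-fold higher (113) was 341 with a minimum of 20 UMIs per gene, 38 with 100, 1501 with none, 50 in cells with a Foxp3 UMI, 67 with Izumo1r left out of the score, and 11 at 2-fold or 546 at a difference of 25%. The count at least 1.5-fold lower (417) was 838, 167 and 2767 under those minima, 103 in cells with a Foxp3 UMI, 263 in cells thinned to 1811 UMIs, and 91 at 2-fold or 1202 at 25%. In cells with a Foxp3 UMI the entry and egress median was 0.41 on the log2 scale and the effector median −0.68. The core Treg median was −0.43 with score and levels from separate sets of the UMIs and −0.37 without Izumo1r in the score, where the GIMAP median was 0.08. Direction changed for Dapl1 (−0.30) without Izumo1r, Ccl5 (0.84) without Nrp1, Jchain (−4.86) without Bcl2, and Itgb1 (0.07), S100a6 (1.05) and Usp18 (−0.01) in cells with a Foxp3 UMI; the cause was not tested. Over the 27 alternatives that keep the fold and give a value, Ikzf2 ran from −1.33 to −0.81, Klf2 from 0.25 to 0.79, Foxp3 from −0.51 to 0.44 and the core Treg median from −0.78 to −0.37, while the entry and egress median ran from −0.11 to 0.41. Izumo1r was the score gene whose removal replaced most cells, with 507 of 706 (71.8%) kept, against 614 (87.0%) without Bcl2. Trimmed-mean scaling moved all log2 ratios by 0.06. Scaling to totals without the score and ribosomal protein genes was also tried. Both gene counts then stayed within 1.5-fold of their values, and no named gene past 1.5-fold changed direction. No paired analysis was possible because there is 1 library per group and the labels carry no replicate numbers. One library without a replicate limits every value to these cells.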

Other observations

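The TNF receptor list had 11 measured genes, among them the ligand gene Ltb. In the high-score cells 3 were at least 1.5-fold lower than in the middle-score cells and 0 higher, with a median log2 ratio of −0.15. The lower ones were Tnfrsf9, Tnfrsf4 and Tnfrsf1b (TNFR2, 1.60-fold lower, 1.16 to 2.24). Of all genes measured, 6.18% were at least 1.5-fold lower and 1.67% at least 1.5-fold higher. The log2 ratios of Tnfrsf18, Cd27, Tnfrsf25 and Fas were −0.34, −0.05, 0.15 and −0.15.

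Cell cycle genes were mostly near level, with 12 of 14 within 1.5-fold and a median log2 ratio of −0.25. Cycling cells had been removed beforehand. The inhibitor gene Cdkn2c was 2.65-fold lower (1.31 to 5.82), from 11 UMIs against 33, and Cdkn1b, which encodes p27, had a log2 ratio of 0.27. Among AP-1 and early-response genes 13 of 14 were within 1.5-fold. The exception was Zfp36l1, an mRNA-decay factor, at 109, 185 and 348 CPM in the high-, middle- and low-score cells (1.70-fold lower than the middle-score cells, 1.48 to 1.95). Vim, the intermediate filament gene of the actin and cytoskeleton list, was 1.42-fold lower (1.30 to 1.54), while Tmsb10 was 1.14-fold higher (1.12 to 1.16).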
